A study of Homo sapiens with 10 samples.

Results

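Ephrins and their Eph receptors were followed in HCT116 colorectal carcinoma cells with and without an edited CD276 gene. The members were 10 genes taken by symbol: the receptors EPHA1, EPHA2, EPHA4, EPHB2, EPHB3 and EPHB4, and the ligands EFNA1, EFNA4, EFNB1 and EFNB2. They are 10 of the 22 Eph and ephrin genes in a table of 58050 Ensembl gene identifiers, and all 10 were found in it by their identifier. RNA came from 5 cultures of HCT116-WT cells (replicates 1 to 5, genotype WT) and 5 cultures of HCT116-CD276KO cells (replicates 1 to 5, genotype CD276KO), all grown in McCoy's medium with serum. The knockout cells were edited by electroporation of a Cas9 and guide RNA complex and were carried as 1 single cell clone. The labels name a scrambled guide as the control of the editing but do not say whether the HCT116-WT cultures received it. Replicates are therefore cultures, and a difference between groups can be one between this clone and the WT cells whatever its link to CD276; the 2 cannot be told apart.

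Eph receptors are the largest family of receptor tyrosine kinases, and their ligands, the ephrins, stay on the surface of the neighbouring cell. A-type ephrins are held by a lipid anchor and mostly bind EphA receptors, whereas B-type ephrins cross the membrane and mostly bind EphB receptors, and EphA4 can bind both. Contact signals forward into the receptor cell and in reverse into the ephrin cell, and drives repulsion, adhesion and the sorting of cells. In the intestinal crypt EPHB2 and EPHB3 are Wnt target genes, and with ephrin-B ligands they keep dividing and differentiated cells apart.

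The deposited values were TPM, a relative abundance of transcripts within each library that sums to the same total in all of them. They are scaled for transcript length, so that levels of different genes can be set side by side. CD276 stood at 45.3 ± 6.17 TPM (SD, n = 5) in HCT116-WT cells and at 5.46 ± 1.21 TPM in HCT116-CD276KO cells, and every knockout library was below every WT library. The epithelial genes CDH1, EPCAM, KRT8, KRT18 and KRT19 were detected in all libraries, while VIL1 was near 0. In contrast, the 14 macrophage, endothelial and fibroblast markers other than COL1A1 reached at most 0.5 TPM in any library. The fibroblast marker COL1A1 stood at 7.31 ± 1.09 TPM in HCT116-WT and 5.57 ± 1.20 TPM in HCT116-CD276KO cells. The trend of the libraries with GC content, as a Spearman correlation across genes, ran from -0.34 in HCT116-WT replicate 1 to 0.61 in HCT116-WT replicate 3. With transcript length it ran from -0.52 and -0.49 in HCT116-CD276KO replicates 2 and 3 to 0.43 in HCT116-WT replicate 1. For EFNB2, EPHA2, EPHA4 and the lists of members, partners and Wnt targets, values without those 2 knockout libraries are given too. This setting was chosen after seeing the data.

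Among the members only EFNB2 passed the test, and it stood in HCT116-CD276KO cells at 49.1% of its level in HCT116-WT cells. The comparison was made in limma on log2(TPM + 1) for genes whose mean over the libraries was 1 TPM or more, and a gene was called at a Benjamini-Hochberg adjusted p under 0.05. Of the 9 members that passed the filter on low values, 1 was called lower and 0 higher, against 4.09% of the 13581 genes tested called lower and 0.781% called higher. At an unadjusted p under 0.05 there were 3 of the 9, namely EFNB2, EPHA1 and EFNB1, against 21.9% of all tested genes. The groups did not overlap, with the knockout lower, for EFNB2 and EPHA1, and for 6.19% of all tested genes. EPHA4 fell under the filter with a mean of 0.762 TPM over the 10 libraries and was therefore tested only in the fit of all genes above 0 TPM. The median log2 fold change (HCT116-CD276KO minus HCT116-WT) was -0.19 over the 9 members and -0.09 over all tested genes. It was -0.10 and 0.013 after a correction that takes from each library its trend with gene length and GC content, and -0.13 and -0.029 without HCT116-CD276KO replicates 2 and 3.

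**Figure D1:**
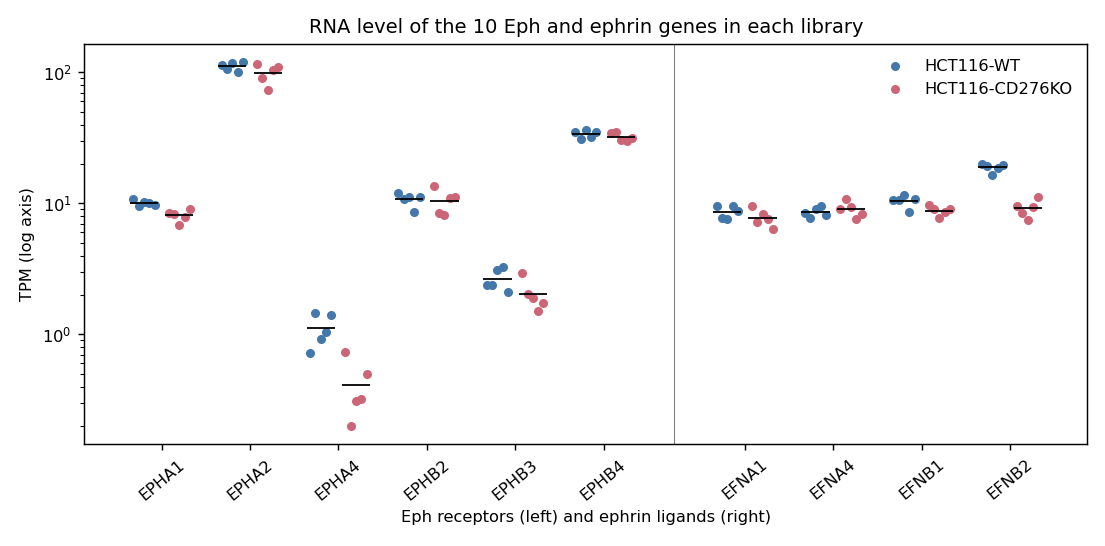
TPM of each of the 10 genes on a log axis, with 1 point for each library of HCT116-WT and HCT116-CD276KO (n = 5 each) and a bar at the group mean. EPHA2 stands highest at 112 and 98.9 TPM, and the groups lie fully apart for EFNB2 and EPHA1.

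The receptors covered a wide range of levels. EPHA2, an EphA receptor that is abundant in many carcinoma lines, was the most abundant member at 112 ± 7.87 TPM in HCT116-WT cells. In mean level over the 10 libraries of both groups it exceeded 88.8% of all tested genes. EPHB4, the receptor that prefers ephrin-B2, came next at 34.0 ± 2.10 TPM, and the libraries of these 2 receptors overlapped neither with each other nor with any other member. EPHB2 (10.8 ± 1.301 TPM) and EPHA1 (10.1 ± 0.502 TPM) overlapped in their libraries with EFNB1. EPHB3 followed at 2.65 ± 0.509 TPM and EPHA4 closed the order at 1.11 ± 0.316 TPM. Summed over every Eph receptor gene of the table, EPHA2 held 62.8 to 64.8% of receptor TPM in the HCT116-WT libraries and 58.2 to 65.4% in the knockout libraries, so that the ranges overlapped.

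EPHA1 (ENSG00000146904; hg38, chr7:143390289-143408856, minus strand), the receptor for which the Eph family was first described, was lower in every knockout library without passing the test. The HCT116-WT libraries stood at 10.85, 9.60, 10.3, 10.1 and 9.69 TPM and the HCT116-CD276KO libraries at 8.51, 8.30, 6.90, 7.86 and 9.01 TPM. The highest knockout value was thus below the lowest WT value, and the knockout mean was 80.4% of the WT mean. The log2 fold change of TPM + 1 was -0.29 (SE 0.080, 95% confidence interval -0.46 to -0.11), with an adjusted p of 0.0645 in limma and a two-sided exact permutation p of 0.00794, the smallest that 5 against 5 allows. After the length and GC correction it was -0.17, with an adjusted p of 0.0657, and over all alternatives with a test the adjusted p lay between 0.0503 and 0.217. Its locus overlaps ZYX on the opposite strand, at 102 TPM in WT and 85.2 TPM in knockout cells, and the strand setting of the counting is not given in the sources used here.

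EPHA2 (ENSG00000142627; chr1:16124337-16156069, minus strand) was widely spread in the knockout group. Its HCT116-WT libraries stood at 114, 106, 117, 101 and 119.8 TPM, against 115, 90.4, 73.7, 104 and 111 TPM in the knockout. The groups overlapped, and the lowest value belonged to HCT116-CD276KO replicate 3, the library in which 5 of the 10 members and 26.7% of all tested genes had their lowest level. The log2 fold change was -0.19 (95% confidence interval -0.44 to 0.058), with an adjusted p of 0.334 in limma. It was -0.089 without replicate 3, -0.019 without replicates 2 and 3 and -0.057 after the length and GC correction.

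EPHA4 (ENSG00000116106; chr2:221418027-221574202, minus strand) binds ligands of both classes and was the least abundant member. The WT libraries were at 0.72, 1.46, 0.92, 1.05 and 1.40 TPM and the knockout libraries at 0.74, 0.20, 0.31, 0.32 and 0.50 TPM. In 24 of the 25 pairs of a knockout and a WT library the knockout value was lower, the exception being HCT116-CD276KO replicate 1 against HCT116-WT replicate 1. The mean was 37.3% of that in WT cells. In the fit of all 30818 genes above 0 TPM, in which 1.47% of genes were called lower, the log2 fold change of TPM + 1 was -0.58 (SE 0.13, 95% confidence interval -0.87 to -0.28), with an adjusted p of 0.0633 in limma and an exact permutation p of 0.0159. Without HCT116-CD276KO replicate 1 it was -0.65 with an adjusted p of 0.0404 in limma. The added pseudocount holds such a low gene close to 0, and the log2 ratio of mean TPM was -1.42.

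The receptors of the B class did not pass the test. EPHB2 (ENSG00000133216; chr1:22710839-22921500, plus strand), which positions cells along the intestinal crypt, stood at 12.0, 10.8, 11.3, 8.59 and 11.2 TPM in WT and at 13.5, 8.46, 8.11, 10.9 and 11.2 TPM in knockout cells. The highest and the lowest of the 10 values both belonged to the knockout group. Its log2 fold change was -0.056 (95% confidence interval -0.35 to 0.24, adjusted p = 0.821 in limma), and its sign turned to 0.033 under median-of-ratios scaling, to 0.083 under quantile normalization and to 0.19 after the length and GC correction.

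EPHB3 (ENSG00000182580; chr3:184561785-184582408, plus strand), the second crypt receptor, was present at 2.37, 2.40, 3.09, 3.29 and 2.11 TPM in WT and at 2.94, 2.04, 1.90, 1.52 and 1.74 TPM in knockout cells. Replicate 1 was the only knockout library above the lowest WT library. The log2 fold change was -0.28 (95% confidence interval -0.58 to 0.032), with an adjusted p of 0.271 in limma and an exact permutation p of 0.0873. EPHB4 (ENSG00000196411; chr7:100802565-100827523, minus strand), known for its part in vessel formation, stood at 35.1, 31.3, 36.1, 32.15 and 35.1 TPM in WT and at 34.2, 35.1, 30.5, 29.95 and 31.8 TPM in knockout cells. With a log2 fold change of -0.069 (95% confidence interval -0.22 to 0.082, adjusted p = 0.563 in limma) the groups overlapped, and the value was 0.026, 0.034 and 0.067 under the same 3 alternatives. SLC12A9 overlaps EPHB4 on the opposite strand and stood at 8.94 and 7.79 TPM.

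**Figure D2:**
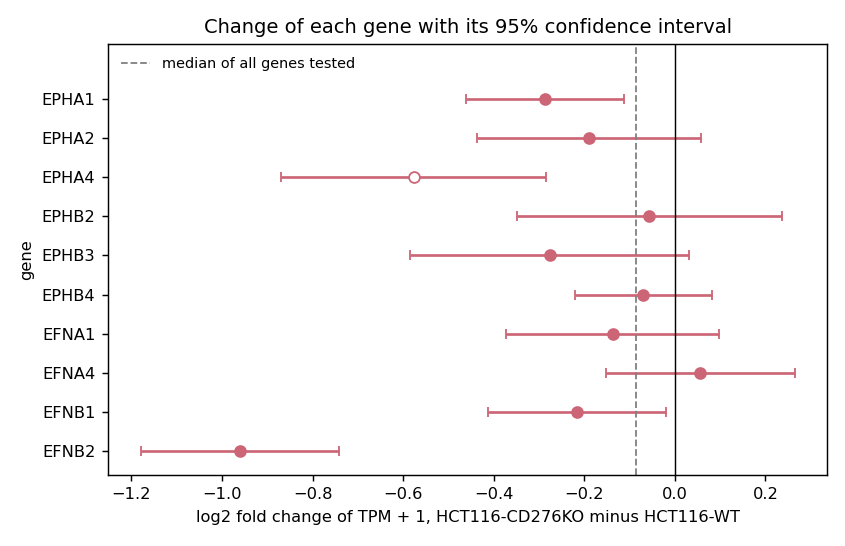
Log2 fold change of TPM + 1 (HCT116-CD276KO minus HCT116-WT) of each of the 10 genes with its 95% confidence interval, with a dashed line at the median of the 13581 genes tested and an open circle for EPHA4, from the fit of all genes above 0 TPM. EFNB2 lies farthest from 0 at -0.96, and the intervals of EPHA1, EPHA4, EFNB1 and EFNB2 lie below 0.

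The ligands of the A class were alike in level. EFNA1 (ENSG00000169242; chr1:155127876-155134899, plus strand), a main ligand of EPHA2, stood at 9.62, 7.74, 7.55, 9.56 and 8.79 TPM in WT and at 9.50, 7.22, 8.24, 7.67 and 6.38 TPM in knockout cells. EFNA4 (ENSG00000243364; chr1:155063737-155069553, plus strand) stood at 8.45, 7.80, 9.0, 9.61 and 8.23 TPM in WT and at 9.09, 10.8, 9.38, 7.60 and 8.30 TPM in knockout cells. In both genes the groups overlapped. The log2 fold change was -0.14 for EFNA1 (95% confidence interval -0.37 to 0.098, adjusted p = 0.457 in limma), and -0.076 without HCT116-CD276KO replicate 5 and -0.0026 under quantile normalization. It was 0.056 for EFNA4 (95% confidence interval -0.15 to 0.26, adjusted p = 0.746 in limma), the only positive value among the tested members. EFNA4 lies on the same strand as the readthrough gene EFNA4-EFNA3, listed at 2.26 to 7.11 TPM, so its reads may be split between both and its level is uncertain.

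The 2 ligands of the B class differed in their change. To show what lies before their start sites, the 250 bases upstream of each RefSeq start (GRCh38.p14) are given 5′ to 3′ on the strand of the gene, at chr13:106535663-106535912 on the minus strand for EFNB2 and at chrX:68828771-68829020 on the plus strand for EFNB1. Capitals mark CCAAT boxes (CCAAT) and GC boxes (GGGCGG), each searched on both strands, and none of these matches overlap.
EFNB2: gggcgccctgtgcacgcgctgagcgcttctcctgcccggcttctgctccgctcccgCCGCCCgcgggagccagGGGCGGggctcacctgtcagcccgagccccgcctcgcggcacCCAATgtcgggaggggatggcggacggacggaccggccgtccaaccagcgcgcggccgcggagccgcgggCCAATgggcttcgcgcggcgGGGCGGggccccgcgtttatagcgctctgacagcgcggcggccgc
EFNB1: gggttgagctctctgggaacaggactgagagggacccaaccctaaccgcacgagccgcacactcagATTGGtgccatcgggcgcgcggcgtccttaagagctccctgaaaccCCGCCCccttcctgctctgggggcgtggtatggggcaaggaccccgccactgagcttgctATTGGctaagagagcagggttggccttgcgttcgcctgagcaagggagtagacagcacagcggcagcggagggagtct
The EFNB2 window held 2 CCAAT boxes and 3 GC boxes, with 78.4% GC and 40 CpG dinucleotides, whereas the EFNB1 window held 2 CCAAT boxes and 1 GC box, with 63.6% GC and 15 CpG. Over the 35093 windows of this length in the table the medians were 58% GC and 11 CpG, and the EFNB2 window exceeded 97.8% of windows in CpG. All 10 members were matched to a window. A CCAAT box was found in 7 of the 10 and in 32% of all windows, a GC box in 10 of the 10 and in 42.6%, and the TCF/LEF letters CTTTGAT in 0 of the 10 and in 2.26%. The windows compared were not matched for GC content or CpG, on which matches to a GC box depend. Letters found in 2.26% of windows are likely to be absent from 10 of them, and sites outside the 250 bases were not searched.

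EFNB2 (ENSG00000125266; chr13:106489745-106535662, minus strand) encodes ephrin-B2, the preferred ligand of EPHB4. The HCT116-WT libraries stood at 20.1, 19.3, 16.4, 18.7 and 19.6 TPM. The HCT116-CD276KO libraries stood at 9.50, 8.49, 7.49, 9.46 and 11.2 TPM. The highest knockout library was well below the lowest WT library, and the means were 18.8 ± 1.43 TPM and 9.24 ± 1.39 TPM (SD, n = 5 each). EFNB2 fell by 0.96 on the log2(TPM + 1) scale (SE 0.10, 95% confidence interval -1.18 to -0.74), with an adjusted p of 0.000161 in limma and an exact permutation p of 0.00794. By the size of its change it was 166th of the 13581 genes tested.

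The fall of EFNB2 passed the test under every alternative that was run with a test, with log2 fold changes from -1.03 to -0.78 and adjusted p from 9.30e-06 to 0.00115 in limma. Without HCT116-CD276KO replicates 2 and 3, a setting chosen after seeing the data, it was -0.84 with an adjusted p of 0.00105. After the length and GC correction the WT libraries lay between 4.08 and 4.27 and the knockout libraries between 3.32 and 3.56 on the log2 scale, still without overlap. In WT cells EFNB2 was the third most abundant member and overlapped with no other, whereas in knockout cells it came after EPHB2, with libraries that overlapped those of EPHB2 and EFNA4.

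EFNB1 (ENSG00000090776; chrX:68829021-68842160, plus strand), which encodes ephrin-B1, stood at 10.6, 10.6, 11.6, 8.53 and 10.7 TPM in WT and at 9.69, 9.04, 7.80, 8.54 and 9.02 TPM in knockout cells. The groups overlapped through HCT116-WT replicate 4, the lowest WT library. The log2 fold change was -0.22 (95% confidence interval -0.41 to -0.019), with an adjusted p of 0.193 in limma and an exact permutation p of 0.0397, and -0.10 after the length and GC correction.

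As levels per length, the ephrin-B genes EFNB1, EFNB2 and EFNB3 summed to 27.2 to 30.7 TPM in WT libraries and to 15.3 to 20.3 TPM in knockout libraries. The ephrin-A genes summed to 37.7 ± 1.68 and 36.6 ± 1.72 TPM. The EphB receptors summed to 51.2 ± 2.96 and 49.1 ± 3.95 TPM and the EphA receptors to 124 ± 7.98 and 108 ± 18.0 TPM. Of these 4 sums, that of the B ligands was the one whose groups did not overlap. EFNB2 made up 64.3 ± 3.67% of ephrin-B TPM in WT and 51.0 ± 2.98% in knockout cells. The ratio of EFNB2 to EFNB1 was 1.41 to 2.19 in WT libraries and 0.939 to 1.25 in knockout libraries. On the log2 scale the ratio was lower by 0.80 in the knockout, where the WT mean was 0.86 and the knockout mean 0.057 (exact permutation p = 0.00794). The difference after the length and GC correction was -0.68 with the same p. The ephrin-B sum, the share and the ratio all contain EFNB2, whose groups already lay fully apart. They are therefore no support for its fall beyond the values of EFNB2 itself. EPHB4 stood at 1.82 ± 0.222 times the level of its ligand EFNB2 in WT and at 3.56 ± 0.565 times in knockout cells. That ratio contains EFNB2 as well and adds nothing to its fall, and EPHB4 itself did not pass the test.

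**Figure D3:**
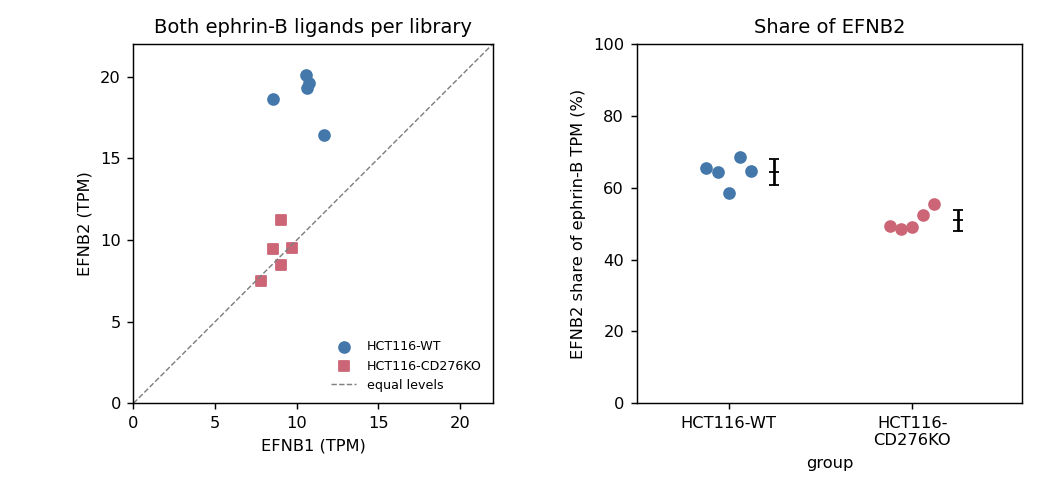
Left, TPM of EFNB2 against TPM of EFNB1 with 1 point per library (n = 5 each) and a dashed line of equal levels; right, EFNB2 as a percentage of ephrin-B TPM per library, with the group mean and SD in black. The WT libraries lie between 16.4 and 20.1 TPM of EFNB2 and the knockout libraries, near the line, between 7.49 and 11.2 TPM, and the shares average 64.3% and 51.0%.

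The tested genes whose profile over the 10 libraries was most like that of EFNB2 were HTR7, a serotonin receptor, ABCC2, an export pump for organic anions, and GALNT5, a glycosyltransferase. Their mean absolute differences from EFNB2, each profile centred on its own mean of log2(TPM + 1), were 0.0584, 0.0612 and 0.0639. HTR7 stood at 14.7 and 6.87 TPM in WT and knockout cells, ABCC2 at 9.26 and 4.35 TPM and GALNT5 at 11.7 and 5.61 TPM. Their log2 fold changes were -0.99, -0.94 and -0.96. The centred profiles hold the difference between the groups, so the search favours genes with a fold change like that of EFNB2. A shared course within the groups was not tested. Within 5 megabases of EFNB2 on either side, 22 other genes were tested. Of them 2, BIVM and LINC03061, named after their values were seen, were called lower. Over chromosome 13 it was 6 of 237 other genes, and 4.09% of all tested genes. Log2 fold changes in the region ran from -0.68 to 0.78 with a median of -0.07.

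Of the 12 further Eph and ephrin genes, 3 passed the filter and 0 were called in limma, with 0 at an unadjusted p under 0.05. Over all tested genes 4.09% were called lower and 0.781% higher, so a count of 0 among 3 genes says little about them. EFNA3 stood at 12.6 and 12.4 TPM in WT and knockout cells, EFNA2 at 7.32 and 6.66 TPM, and EPHB6, a receptor whose kinase is inactive, at 3.68 and 4.22 TPM. The readthrough gene EFNA4-EFNA3 overlaps EFNA3 on the same strand as well, so the levels of EFNA3 and of the ephrin-A sum are also uncertain. EPHA10 (0.93 and 1.00 TPM) and EFNA5 (0.498 and 0.678 TPM) were low. EPHB1, EFNB3, EPHA7 and EPHA8 had means of at most 0.106 TPM, and EPHA3, EPHA5 and EPHA6 were listed at 0 in every library.

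Genes for proteins that carry or end Eph and ephrin signals did not pass the test. Of 44 listed partners 40 were tested and 0 called in limma in any setting. In the main fit 4.09% of all tested genes were called lower and 0.781% higher. At an unadjusted p under 0.05 there were 9 of the 40, close to the share of all tested genes given above for the members. The lowest log2 fold change was that of PTPRF, a receptor phosphatase, at -0.44 (131 ± 14.1 and 98.9 ± 28.4 TPM), and the highest that of PARD6A, a polarity adaptor, at 0.30 (3.56 ± 0.696 and 4.59 ± 0.427 TPM). ADAM10, which cleaves ephrins, stood at 119.8 ± 14.6 TPM in WT and 96.1 ± 22.5 TPM in knockout cells (adjusted p = 0.222 in limma). Of the 40, 33 had a negative value, with a median of -0.16. The median was -0.028 after the length and GC correction, where all tested genes had 0.013, and 23 of the 40 were then negative. In 24 of the 40 (60%) the 2 lowest libraries were HCT116-CD276KO replicates 2 and 3, as in 27.7% of all tested genes. Without these 2 libraries the median of the partners was -0.034 and that of all tested genes -0.029.

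Wnt target genes were examined because EPHB2 and EPHB3 belong to them. Of 13 listed genes 9 were tested, 3 were called lower and 0 higher, against 4.09% and 0.781% of all tested genes. The median log2 fold change was -0.36, against -0.09 over all tested genes. It was -0.14 against 0.013 after the length and GC correction. Without HCT116-CD276KO replicates 2 and 3 it was -0.21 against -0.029. RNF43, a ubiquitin ligase that removes Wnt receptors, fell from 21.1 ± 1.11 to 14.6 ± 1.72 TPM (log2 fold change -0.51, adjusted p = 0.00502 in limma). SOX9, a transcription factor of crypt cells, fell from 53.3 ± 2.06 to 38.2 ± 5.29 TPM (-0.48, adjusted p = 0.00950 in limma). ZNRF3, the paralog of RNF43, fell from 6.11 ± 0.362 to 4.58 ± 0.392 TPM (-0.35, adjusted p = 0.0295 in limma). The call of ZNRF3 was lost after the length and GC correction (-0.14, adjusted p = 0.264 in limma), where CD44 gained one (-0.17, adjusted p = 0.0295 in limma). The call of ZNRF3 was also lost with the replicate number as a block, under both scalings between libraries, with all genes above 0 TPM and with a mean of 5 TPM or more. It was lost without any 1 of HCT116-WT replicates 1, 3, 4 and 5 and HCT116-CD276KO replicates 2, 3 and 4, and without HCT116-CD276KO replicates 2 and 3 together, whereas RNF43 and SOX9 were called in every setting run. The other 6 tested genes did not pass, with values of -0.39 for NKD1, -0.39 for TCF7, -0.36 for CD44, 0.08 for AXIN2, 0.14 for NOTUM and 0.21 for SP5. EPHB2 and EPHB3 did not pass either (-0.056 and -0.28).

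**Figure D4:**
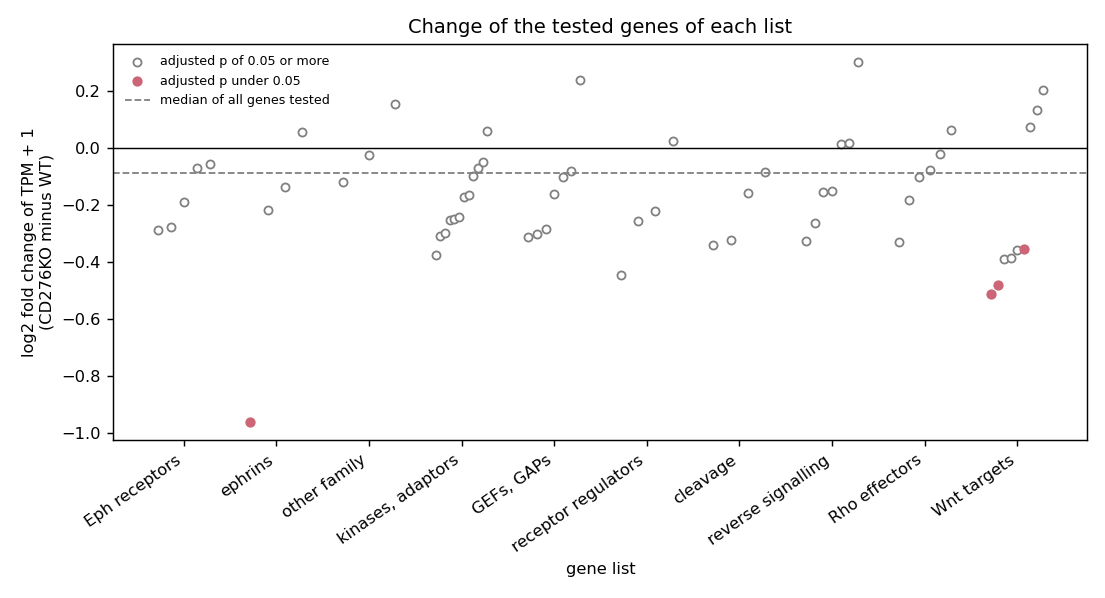
Log2 fold change of TPM + 1 (HCT116-CD276KO minus HCT116-WT) of the tested genes of each list, with filled points for an adjusted p under 0.05 and a dashed line at the median of all genes tested. EFNB2 is the filled ephrin at -0.96, and 3 Wnt targets are filled.

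The epithelial markers moved with the groups. Of the 7 listed, 6 were tested and 5 were called lower, against 4.09% of all tested genes. After the length and GC correction 5 were called lower as well. The sum of the list ran from 4181 to 4954 TPM in WT and from 3317 to 3783 TPM in knockout libraries. CDH1, the adhesion protein E-cadherin, fell from 42.7 ± 4.92 to 20.4 ± 5.73 TPM (log2 fold change -1.07, adjusted p = 0.00311 in limma). CDX2, an intestinal transcription factor, stood at 8.91 and 9.27 TPM. In RNA from whole cultures, fewer cells with a transcript and less of it in each cell cannot be told apart, and the part of the epithelial genes in the level of EFNB2 was not tested.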

How the data were processed

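Poly(A) RNA of 5 HCT116-WT and 5 HCT116-CD276KO cultures had been made into strand-specific libraries and sequenced as single reads. Per the submitters' processing notes, STAR 2.5.2b, RSEM 1.3.0 and featureCounts 1.5.1 were used with hg38. The authors deposited TPM values for 58050 Ensembl identifiers, which they had divided by length and brought to 1 common total per library; which program gave the TPM is not given in the sources used here. TPM keep no counts, so the depth behind a value is unknown and precision rests on the cultures. Of the identifiers, 56947 were paired with a symbol through GENCODE 44.

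Genes averaging 1 TPM or more (13581) were fitted on the log2(TPM + 1) scale with limma 3.58.1 in R 4.3.3 (linear model, empirical Bayes with a trend, Benjamini-Hochberg adjustment), all 10 libraries included. Single genes were also compared by exact permutation of the 10 libraries, two-sided. The code was tested on simulated data. Alternatives tried were median-of-ratios scaling, quantile normalization, a pseudocount of 0.1, no filter beyond 0 TPM, a filter at 5 TPM, robust variances, a block for the replicate number, each library left out, the log2 ratio of means, and removal of trends with length and GC content by loess (span 0.3, 13472 genes). One further alternative left out HCT116-CD276KO replicates 2 and 3 and was chosen after seeing the data. Same-numbered libraries of the groups correlated between -0.18 and 0.12 in their deviations, so the numbers were not taken as pairs.

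Genes named were CD276, the members, every other Eph or ephrin gene, up to 8 called genes of the partner and Wnt lists, and the 3 genes most like the called member of largest change. Further partners, Wnt targets, overlapping genes and markers were named after their values were seen. The members and lists were chosen with earlier results of these data known. Promoter sequences are from RefSeq. Protein sequences were not used here.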

Additional observations from a re-analysis of the deposited data

How the results depend on the processing

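The call of EFNB2 held in all 19 alternatives that counted called members, 1 member being called in each, and its log2 fold change without 1 library ran from -1.03 to -0.90. The number of genes called of all tested moved more, from 662 to 378 with the replicate number as a block, to 1299 after the length and GC correction and to 339 without HCT116-CD276KO replicates 2 and 3, an alternative chosen after seeing the data. Without 1 library it ran from 343 to 857, with 345, 376, 421 and 343 without HCT116-WT replicates 1, 2, 4 and 5 and 407 and 375 without HCT116-CD276KO replicates 3 and 4. With the replicate block EFNB2 stayed at -0.96 with an adjusted p of 0.000898 in limma, and the block changed no call of a member. It lost the call of ZNRF3.

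EPHA4 was -0.65 without HCT116-CD276KO replicate 1, with an adjusted p of 0.0404 in limma, and -0.65 to -0.52 over the omission of each library. Its adjusted p in limma was 0.060 or more in every other alternative with a test, and 0.226 with the replicate block. Without HCT116-CD276KO replicates 2 and 3 it was -0.47 with an adjusted p of 0.306 in limma. As a log2 ratio of means it was -1.42. EPHB2 changed sign to 0.033 under median-of-ratios scaling, 0.083 under quantile normalization, 0.19 after the length and GC correction and 0.13 without HCT116-CD276KO replicates 2 and 3, and ran from -0.15 to 0.0205 over the omission of each library, with 0.0069 without replicate 2 and 0.0205 without replicate 3 of HCT116-CD276KO. EPHB4 turned to 0.026, 0.034 and 0.067 under the first 3 of these. EFNA4 turned to -0.044 without both libraries and ran from -0.0046 to 0.11 over the omission of each. The cause was not tested. Other members kept their sign without passing the test. EPHA2 ran from -0.25 to -0.089 without 1 library, was -0.019 without both libraries and -0.092 under median-of-ratios scaling. EFNA1 ran from -0.20 to -0.076 without 1 library and was -0.049 and -0.0026 under median-of-ratios scaling and quantile normalization. EPHA1 and EFNB1 were -0.16 and -0.077 under quantile normalization, and EPHB3 -0.14 after the length and GC correction. The depth behind the values is unknown, also for EPHA4, whose knockout libraries lie below 1 TPM. EPHA4 could not be fitted with a mean of at least 1 or 5 TPM, and EPHB3 not at 5.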
